A study of Mus musculus with 15 samples.

Results

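Axon injury and regeneration genes were followed in the mouse auditory nerve through the first 2 weeks after a damaging noise. The group held 10 genes, taken by symbol as well-known markers of the response of neurons and their surroundings to a cut or crushed axon, namely Atf3, Gadd45a, Sox11, Sprr1a, Gap43, Ecel1, Flrt3, Tnfrsf12a, Csf1 and Stmn4. They were chosen with earlier results of these data known, so member counts beside shares of all genes are descriptions. The platform annotation paired these symbols with 20 of the 34945 probe sets that name a single gene, and the 10 genes were 10 of 18193 genes on the array. Each gene was represented by its probe set of highest mean, and 9 of the 10 genes passed a filter that left out the 25% of genes with the lowest mean level. Sprr1a did not pass and is described separately.

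When a peripheral axon is injured, signals carried back to the cell body switch on a set of transcription factors, of which Atf3 and Sox11 are the usual examples, and these in turn accompany the production of proteins used by a regrowing axon, such as Gap43 and Sprr1a. Gadd45a belongs to the same early stress response, while Tnfrsf12a, Flrt3 and Ecel1 sit at the cell surface and Csf1 is a secreted signal that acts on macrophages and microglia. The auditory nerve carries the axons of spiral ganglion neurons, whose peripheral ends contact the inner hair cells and can be lost after noise.

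The study used CBA/CaJ mice, which keep good hearing into adult life, with 3 animals in each of 5 groups. Controls heard no noise, and the nerves of exposed mice were collected right after the exposure (called immediate here) or 1, 7 or 14 days later. Exposure lasted 2 h, at a level of 106 dB SPL in an octave band between 8 and 16 kHz, and the exposed mice were 5 to 12 weeks of age. Nerve tissue of the left and right ear of each mouse was pooled, so each array was 1 animal. The modiolus, the bony core that holds the nerve, was kept after its outer shell and lateral wall had been dissected away together with most sensory epithelium, and 50 ng of RNA was labelled per array. The sexes were not balanced: the 3 controls were female, the 3 animals at 1 day were male, and the immediate, 7-day and 14-day groups each held 2 females and 1 male. Controls and 1-day animals thus shared no sex, and a fit with sex as a term takes the sex difference from the 3 mixed groups.

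Of the 10 genes, 8 had an upstream window in the RefSeq promoter table of build GRCm38.p6, and Gap43 and Stmn4 did not. The 250 bases before the start are shown for the 2 genes that rose at 1 day and for Sprr1a, whose level was highest right after noise. Each runs 5′ to 3′ on the minus strand, and capitals mark a match to 1 of 5 motifs searched on both strands. Atf3 lies at chr1:191183334-191183583, Gadd45a at chr6:67037408-67037657 and Sprr1a at chr3:92485882-92486131, each just upstream of the annotated start of its gene.
Atf3: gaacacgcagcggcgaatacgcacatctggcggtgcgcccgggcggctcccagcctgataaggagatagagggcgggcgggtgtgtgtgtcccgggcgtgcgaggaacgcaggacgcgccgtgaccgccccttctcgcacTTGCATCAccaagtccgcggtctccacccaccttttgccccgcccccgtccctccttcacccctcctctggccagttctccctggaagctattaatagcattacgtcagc
Gadd45a: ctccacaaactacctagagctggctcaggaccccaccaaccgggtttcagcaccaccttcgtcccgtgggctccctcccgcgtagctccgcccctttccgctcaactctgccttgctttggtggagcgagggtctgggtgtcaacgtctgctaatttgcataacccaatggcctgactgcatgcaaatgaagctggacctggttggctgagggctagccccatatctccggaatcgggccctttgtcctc
Sprr1a: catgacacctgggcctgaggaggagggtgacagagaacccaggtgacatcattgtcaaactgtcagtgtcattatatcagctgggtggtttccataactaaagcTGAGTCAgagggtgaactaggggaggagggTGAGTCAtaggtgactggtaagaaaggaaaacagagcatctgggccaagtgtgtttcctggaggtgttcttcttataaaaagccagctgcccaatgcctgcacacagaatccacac
The capitals in Atf3 are the reverse complement of TGATGCAA, the composite element of C/EBP and ATF proteins, and begin 110 bases before the start. This motif was found in 0.791% of 32851 windows of that length. The capitals in Sprr1a are 2 copies of the reverse complement of TGACTCA, the AP-1 element bound by Fos and Jun proteins, which begin 146 and 116 bases before the start; 4.46% of all windows held it. The cyclic AMP response element TGACGTCA (1.55% of windows), the STAT element TTCNNNGAA (7.02%) and the serum response element of Fos (0.0609%) had no match among the 8 windows, and the Gadd45a window held none of the 5. The 5 motifs do not overlap each other at these matches.

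Values are the deposited log2 intensities, which ran from 2.06 to 14.63, with array medians between 5.87 and 5.92. Differences are log2 differences of group means with the standard error of a limma fit over all 15 arrays, and a difference was called at a Benjamini-Hochberg adjusted p under 0.05 over 13644 tested genes. In bulk tissue of this kind, a change in the number of cells of a type and a change in the RNA per cell cannot be told apart. The 16 markers of spiral ganglion neurons were all above the filter and their mean level lay between 9.93 and 10.1 on control and 1-day arrays, and the 9 Schwann cell markers on the array averaged 10.5 to 10.7 there. The tissue also held macrophage and bone RNA. The mean level of 7 neutrophil markers differed between the 3 controls alone from 5.42 to 8.25. The sex markers Xist and Eif2s3y matched the labelled sex on every array, with Xist between 11.88 and 12.07 in females and between 5.13 and 6.48 in males.

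Atf3 and Gadd45a were the 2 members that rose against controls, both at 1 day, by 3.11-fold and 3.57-fold. Tnfrsf12a was 1.53-fold and 1.46-fold above control immediately and at 1 day without being called, and fell between 1 and 7 days. Sox11, Gap43, Ecel1, Flrt3, Csf1 and Stmn4 were not called against controls at any time. At 1 day, 2 of 9 tested members were called higher and 0 lower, against 3.18% of all tested genes called in either direction and 1.52% called higher. Immediately after noise 0 of 9 were called by limma, where 0.931% of all genes were called, and 4 members had an unadjusted p under 0.05, as 15.5% of all genes did. At 7 and 14 days 0 of 9 were called, against 0.022% and 0% of all genes, with 3 and 2 members at an unadjusted p under 0.05, a level reached by 11.2% and 7.85% of all genes. The median difference of the 9 members from control was 0.14 immediately, 0.27 at 1 day, 0.10 at 7 days and 0.03 at 14 days, beside medians over all tested genes of -0.02, -0.01, 0.01 and 0.02. With sex as a term Atf3 and Gadd45a were again the 2 called members at 1 day, where 0.55% of all genes were called, and 0 of 9 were called immediately, where 0.579% were.

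**Figure D1:**
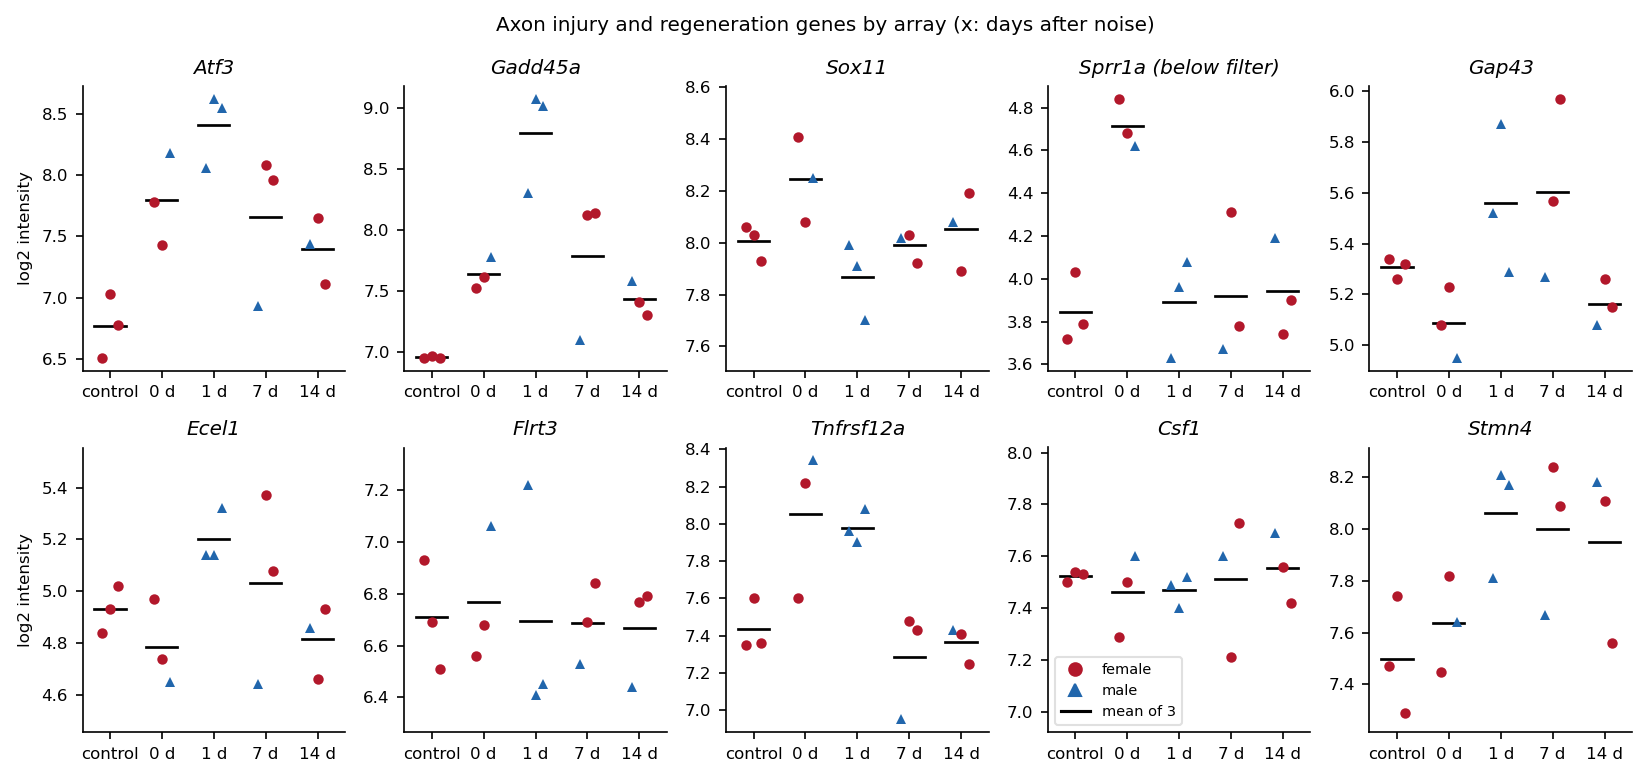
Log2 intensity of the 10 genes on each of the 15 arrays (vertical axes, scaled per gene) by group, with days after noise on the horizontal axis, circles for females, triangles for males and a bar for the mean of 3. The Atf3 and Gadd45a points at 1 day lie above every control point, the Sprr1a points are highest immediately after noise, and the lowest 7-day point in the Atf3 and Gadd45a panels is the male animal.

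Atf3 encodes a basic leucine zipper factor of the ATF/CREB family that is nearly silent in resting neurons and appears after axotomy. Its log2 level was 6.51, 7.03 and 6.78 in the controls and 7.78, 7.43 and 8.18 immediately after noise. It was 8.06, 8.62 and 8.55 at 1 day, 6.93, 8.08 and 7.96 at 7 days, and 7.44, 7.65 and 7.11 at 14 days. Every immediate, 1-day and 14-day array lay above every control, and at 7 days 1 array lay within the control range. By group mean the order was control (6.77 ± 0.26, SD, n = 3), 14 days (7.40 ± 0.27), 7 days (7.66 ± 0.63), immediate (7.80 ± 0.38) and 1 day (8.41 ± 0.31). The difference from control was 1.64 ± 0.27 at 1 day (limma adjusted p = 0.00573) and 1.79 ± 0.36 with sex as a term (adjusted p = 0.0455). In a fit over 26207 single probe sets in place of genes, the same Atf3 probe set was called at 1 day (limma adjusted p = 0.00537) but not with sex as a term (adjusted p = 0.0506). Immediately after noise it was 1.02 ± 0.27 with a 95% interval from 0.45 to 1.60 (limma adjusted p = 0.0919), which is not a call, but without 7-day replicate 1 the same difference was called (adjusted p = 0.0259). At 7 and 14 days the differences were 0.88 and 0.63, also not called (limma adjusted p = 0.277 and 0.604), and the 14-day interval ran from 0.05 to 1.20.

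Gadd45a encodes a small stress protein that rises after growth arrest signals and DNA damage, and in injured sensory neurons. Its controls were the tightest of any member, at 6.95, 6.97 and 6.95. The values were 7.52, 7.61 and 7.78 immediately, 8.30, 9.07 and 9.01 at 1 day, 7.10, 8.12 and 8.14 at 7 days, and 7.58, 7.41 and 7.30 at 14 days. All 12 arrays after noise lay above all 3 controls. Means ran from 6.96 ± 0.01 in controls through 7.43 ± 0.14 at 14 days, 7.64 ± 0.13 immediately and 7.79 ± 0.59 at 7 days to 8.79 ± 0.43 at 1 day (SD, n = 3). The 1-day difference from control was 1.84 ± 0.23 (limma adjusted p = 0.00137), and 2.03 ± 0.31 with sex as a term (adjusted p = 0.0151). The other differences, 0.68 immediately, 0.83 at 7 days and 0.47 at 14 days, were not called in limma (adjusted p = 0.180, 0.266 and 0.648).

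Gadd45a was also called between times. It rose by 1.16 ± 0.23 from the immediate to the 1-day group (limma adjusted p = 0.00969), where 8.39% of all genes were called, and fell by 1.01 from 1 to 7 days (SE 0.23, limma adjusted p = 0.0172), where 9.35% were called. Both calls held with sex as a term, at adjusted p = 0.0174 and 0.0360, where 4.78% and 3.29% of all genes were called. The fall was not called without 1-day replicate 2 (-0.87, limma adjusted p = 0.0828) or replicate 3 (-0.90, adjusted p = 0.0641). Atf3 differed in the same directions by smaller amounts, 0.61 and then -0.75, without a call (limma adjusted p = 0.176 and 0.0926). From 7 to 14 days 0 of 9 members and 0% of all genes were called by limma, and 1 member, Gap43, had an unadjusted p under 0.05, as 2.1% of all genes did.

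For Atf3, Gadd45a, Tnfrsf12a and Stmn4 the spread within the 7-day group lay mainly between replicate 1 and the other animals. Replicate 1, the male of that group, had the lowest value of the 3 in 7 of 9 members, the exceptions being Sox11 and Csf1; over all tested genes it was lowest in 26.8%, replicate 2 in 43.4% and replicate 3 in 26.4%. For Atf3 it lay 1.09 below the mean of its female group mates and for Gadd45a 1.03 below. In the immediate and 14-day groups the male was instead above the female mean, by 0.58 and 0.06 for Atf3 and by 0.22 and 0.23 for Gadd45a. Without this array the 7-day differences from control were 1.25 for Atf3 (limma adjusted p = 0.0440) and 1.17 for Gadd45a (adjusted p = 0.0215), both called, and 50 genes in all were called instead of 3. Whether sex or the animal accounts for its lower values cannot be told apart with 1 male in the group.

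**Figure D2:**
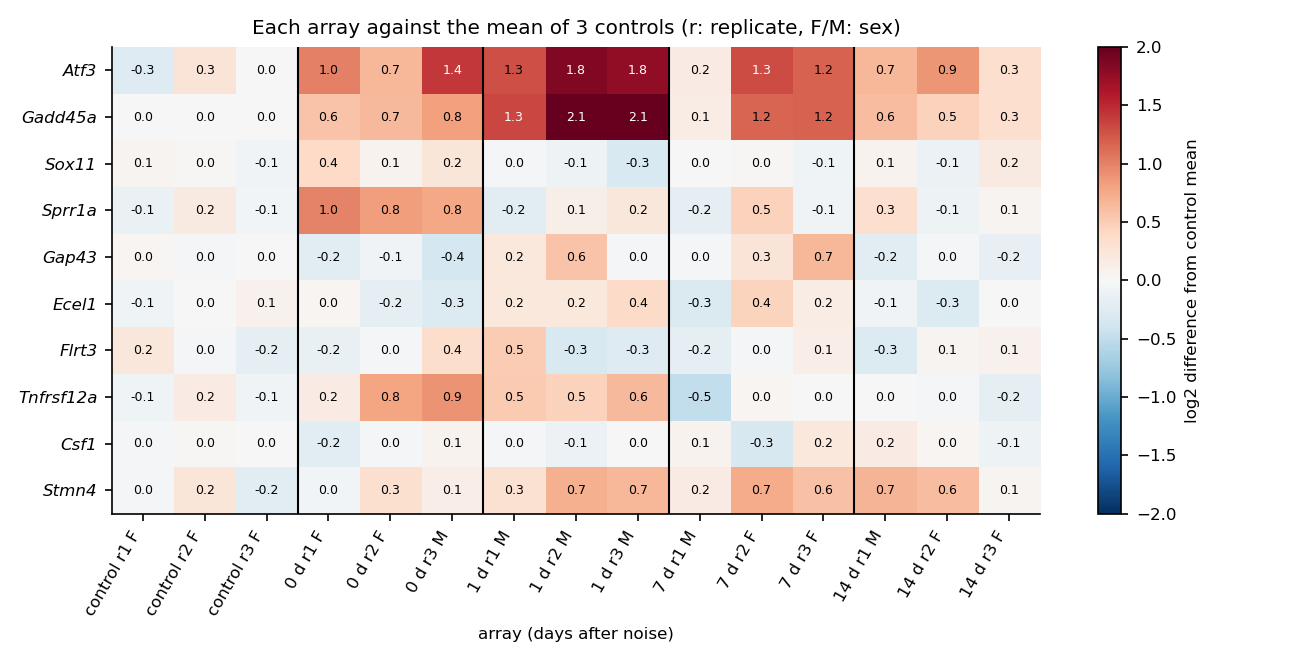
Log2 difference of each array from the mean of the 3 controls (colour and printed value) for the 10 genes in rows and the 15 arrays in columns, with replicate number and sex. Atf3 and Gadd45a are positive on all 12 arrays after noise, and the first 7-day array shows differences of only 0.2 and 0.1 for them.

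Atf3 and Gadd45a varied together from array to array. Over the 15 arrays their Pearson correlation was 0.93, and 0.84 after the group means had been removed, given as a description because the arrays share groups and processing. Among the 36 pairs of tested members correlations ran from -0.53 to 0.93 with a median of 0.03, and 8 were above 0.5. The 3 tested genes most correlated with Atf3 were Pip5kl1 (0.95), Gadd45a (0.93) and Fabp3 (0.88), and those most correlated with Gadd45a were Pip5kl1 (0.95), Tnik (0.94) and Fabp3 (0.93). Pip5kl1, a phosphoinositide kinase-like gene, measured 6.08, 6.34 and 6.46 in controls, 7.15, 6.95 and 6.94 immediately, 7.32, 7.78 and 7.80 at 1 day, 6.61, 7.37 and 7.27 at 7 days, and 6.90, 6.91 and 6.66 at 14 days. Its 7-day replicate 1 was again the lowest of that group, and all 12 arrays after noise lay above all controls. Fabp3, a fatty acid binding protein, had 7-day values of 11.44, 12.05 and 11.86 against controls of 11.43 to 11.45.

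Markers of several cell types differed at 1 day as well. The mean level of 16 macrophage markers was 6.91 to 7.18 in controls, 6.89 to 7.15 immediately, 7.65 to 7.84 at 1 day, 6.87 to 7.44 at 7 days and 6.91 to 7.16 at 14 days. At 1 day 6 of 15 tested markers were called higher (2 with sex as a term), where 1.52% of all genes were. Among them were Cd68 by 1.95 and Aif1 by 1.33, and Itgam was below the filter. Of 6 bone markers 2 were called lower at 1 day, where 1.66% of all genes were. These were Ibsp, with a difference of -1.72, and Dmp1 with -0.81. Neither was called with sex as a term (limma adjusted p = 0.148 and 0.0822). The list's mean level was 8.54 to 9.67 in controls and 7.82 to 8.39 at 1 day. Of 2 tested skeletal muscle markers Ttn was called lower, with -1.05, and stayed called with sex as a term (limma adjusted p = 0.0428). A further 3 of the 5 listed were below the filter, and the median of the 2 tested was -0.53. The mean level of all 5 was 4.81 to 4.96 in controls and 4.63 to 4.81 at 1 day. Of 16 neuron markers Uchl1 was called higher, by 0.53, and Calb2 lower, with -0.25, and the list median was -0.18. Of 9 tested Schwann cell markers Ncmap and S100b were called lower, with -0.32 and -0.30. The median of the 9 was -0.03, beside -0.01 over all genes. With sex as a term 0 neuron and 0 Schwann cell markers were called at 1 day. The part of these cell types and tissues in the 1-day levels of Atf3 and Gadd45a was not tested.

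Tnfrsf12a encodes Fn14, the receptor of the cytokine TWEAK, which is induced in injured nerve, muscle and other tissues. Its log2 level was 7.35, 7.60 and 7.36 in controls, 7.60, 8.22 and 8.34 immediately, 7.96, 7.90 and 8.08 at 1 day, 6.95, 7.48 and 7.43 at 7 days, and 7.43, 7.41 and 7.25 at 14 days. All 1-day arrays were above all controls, whereas 1 immediate array equalled the highest control, and the later arrays overlapped the controls or lay below them. The difference from control was 0.62 ± 0.17 immediately and 0.54 ± 0.17 at 1 day, neither called (limma adjusted p = 0.0971 and 0.0924). Without immediate replicate 1, the lowest of its group, both were called, at 0.84 and 0.54 (limma adjusted p = 0.0211 and 0.0383). It fell by 0.69 from 1 to 7 days (SE 0.17, limma adjusted p = 0.0207), a call that did not hold with sex as a term (adjusted p = 0.0753). It was not called either without 1-day replicate 2 (-0.73), 1-day replicate 3 (-0.64) or 7-day replicate 1 (-0.53), at limma adjusted p from 0.0572 to 0.0675.

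The second Tnfrsf12a probe set gave the same course at a slightly lower level: 7.13, 7.37 and 7.05 in controls, 7.48, 8.03 and 8.12 immediately, and 7.81, 7.90 and 7.77 at 1 day. Here all immediate and all 1-day arrays lay above all controls. In the fit over single probe sets, where 1.1% were called immediately and 2.46% at 1 day, this probe set was called higher at both times, by 0.69 ± 0.15 (limma adjusted p = 0.0424) and 0.64 ± 0.15 (adjusted p = 0.0384). Neither call held with sex as a term (adjusted p = 0.0676 and 0.184). The first was not called in that fit (limma adjusted p = 0.0877 and 0.0997). From 1 to 7 days both probe sets fell, by 0.69 and 0.67 (limma adjusted p = 0.0194 and 0.0153; 8.5% of probe sets called), and neither fall was called with sex as a term (adjusted p = 0.0773 and 0.0629). The 2 probe sets therefore differ in the call against controls and not in direction immediately and at 1 day. Tnfrsf12a tracked Arhgef2 (r = 0.88), Bcl3 (0.87) and Stat3 (0.87) over the 15 arrays.

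**Figure D3:**
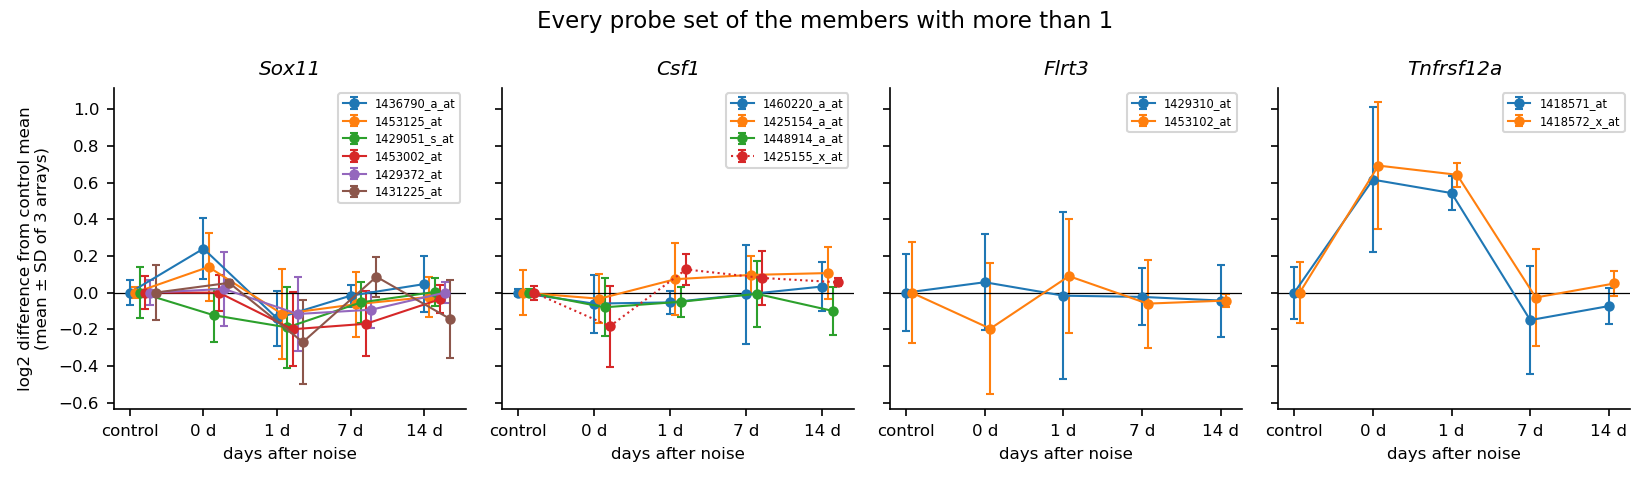
Log2 difference from the control mean (mean ± SD of 3 arrays) by days after noise for every probe set of the 4 members with more than 1; the dotted line is the Csf1 probe set below the filter. Both Tnfrsf12a probe sets lie 0.54 to 0.69 above the control mean immediately and at 1 day, while the Sox11, Csf1 and Flrt3 probe sets stay within 0.27 of the control mean at every time.

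Sprr1a, a small proline-rich protein of the cornified envelope of skin that is also strongly induced in axotomised sensory neurons, was near the floor of the array, where differences are compressed. Its log2 level was 3.72, 4.03 and 3.79 in controls and 4.84, 4.68 and 4.62 immediately after noise. It was 3.63, 3.96 and 4.08 at 1 day, 3.67, 4.31 and 3.78 at 7 days, and 4.19, 3.74 and 3.90 at 14 days. The 3 immediate arrays were the highest of all 15, and every later group overlapped the controls. In a fit without the filter on low values, over 18193 genes of which 0.66% were called, the immediate difference was 0.87 ± 0.17, or 1.82-fold (limma adjusted p = 0.0287). Sprr1a then fell by 0.82 to 1 day (limma adjusted p = 0.0118), where 5.34% of genes were called without the filter. That fall was -0.79 with sex as a term and stayed called (limma adjusted p = 0.0464). It also stayed called without any single array, at limma adjusted p up to 0.0489. With sex as a term the immediate difference was 0.88 with adjusted p = 0.0510. Without any single control or immediate array it was not called either, with values from 0.80 to 0.96 and adjusted p up to 0.107. Because Sprr1a also marks squamous epithelium, 9 epithelial markers were read beside it: 6 were below the filter, 0 of the 3 tested were called at any time, and their mean was 4.88 to 4.98 in controls and 4.92 to 5.07 immediately.

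Sox11 encodes a SoxC transcription factor of developing neurons that returns in injured sensory neurons. Its log2 level was 8.06, 8.03 and 7.93 in controls, 8.41, 8.08 and 8.25 immediately, and 7.99, 7.91 and 7.70 at 1 day. The 7-day values were 8.02, 8.03 and 7.92 and the 14-day values 8.08, 7.89 and 8.19. The immediate arrays lay just above all controls, by a mean of 0.24 (limma adjusted p = 0.254), and the 1-day mean was 0.14 below control (adjusted p = 0.501). Only the step between them was called, a fall of 0.38 from immediate to 1 day (SE 0.10, limma adjusted p = 0.0307). With sex as a term that step had an adjusted p of 0.0667. It was not called without immediate replicate 1 (-0.30) or 3 (-0.38), or without 1-day replicate 2 (-0.40) or 3 (-0.30), at limma adjusted p from 0.0711 to 0.119. The other 5 Sox11 probe sets gave -0.07 to -0.32 for the same step and none was called in the probe-set fit, where 7.6% of probe sets were.

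Gap43, the growth-associated protein of growth cones, and Stmn4, a tubulin-binding protein of the stathmin family found in neurons, belong to the growth machinery itself. Gap43 was dim, at 5.34, 5.26 and 5.32 in controls, 5.08, 5.23 and 4.95 immediately, 5.52, 5.87 and 5.29 at 1 day, 5.27, 5.57 and 5.97 at 7 days, and 5.08, 5.26 and 5.15 at 14 days. The immediate arrays were all below the controls, as were those of 12.3% of all genes, and the 14-day arrays reached no higher than the lowest control. No difference from control was called: -0.22 immediately, 0.25 at 1 day, 0.30 at 7 days and -0.14 at 14 days (limma adjusted p = 0.563, 0.451, 0.524 and 0.871). The step from immediate to 1 day was 0.47 (limma adjusted p = 0.0867), and 0.66 with sex as a term, which was called (adjusted p = 0.0407). Without 7-day replicate 3, the highest Gap43 value, it was called as well (limma adjusted p = 0.0451).

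Stmn4 measured 7.47, 7.74 and 7.29 in controls, 7.45, 7.82 and 7.64 immediately, 7.81, 8.21 and 8.17 at 1 day, 7.67, 8.24 and 8.09 at 7 days, and 8.18, 8.11 and 7.56 at 14 days. The 1-day arrays were all above the controls, and at 7 and 14 days 1 array of each group fell within the control range. The differences of 0.56, 0.50 and 0.45 at 1, 7 and 14 days were not called (limma adjusted p = 0.106, 0.348 and 0.585), with a 95% interval at 14 days from 0.06 to 0.84. The Stmn4 mean at 14 days, 7.95, stood beside a 1-day mean of 8.06 and a control mean of 7.50.

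Ecel1, an endopeptidase-like membrane protein of neurons induced by nerve injury, measured 4.84, 4.93 and 5.02 in controls and 5.14, 5.14 and 5.32 at 1 day. Its 1-day arrays were all above the controls, but the difference of 0.27 was not called (limma adjusted p = 0.388). The step from immediate to 1 day, 0.41, was called only without 7-day replicate 1 or with array weights (limma adjusted p = 0.111 over all arrays, 0.0425 without that array). At the other times it ranged from 4.64 to 5.37 and overlapped the controls. At 1 day 5 of 9 members had every array above every control (Atf3, Gadd45a, Tnfrsf12a, Stmn4 and Ecel1), a pattern seen in 10.1% of all tested genes. Immediately this held for Atf3, Gadd45a and Sox11, against 8.86% of all genes. At 7 days it held for Gadd45a alone, against 8.19%, and at 14 days for Atf3 and Gadd45a, against 8.77%.

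Flrt3 and Csf1 had no called difference at any time, and their group means lay within 0.06 of the control mean. Flrt3, a leucine-rich repeat adhesion protein of growing axons, ranged from 6.51 to 6.93 in controls and from 6.41 to 7.22 over the 12 arrays after noise. Its differences from control were 0.06, -0.02, -0.02 and -0.04 in order of time, and each 95% interval lay within -0.46 and 0.48. Csf1, the ligand of the receptor Csf1r on macrophages and microglia, ranged from 7.50 to 7.54 in controls and from 7.21 to 7.73 after noise. Its differences were -0.06, -0.05, -0.01 and 0.03, with 95% intervals within -0.31 and 0.29. Csf1r itself was called higher at 1 day than immediately, by 0.36 (limma adjusted p = 0.0486), and it is one of the macrophage markers whose mean level was higher at 1 day.

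**Figure D4:**
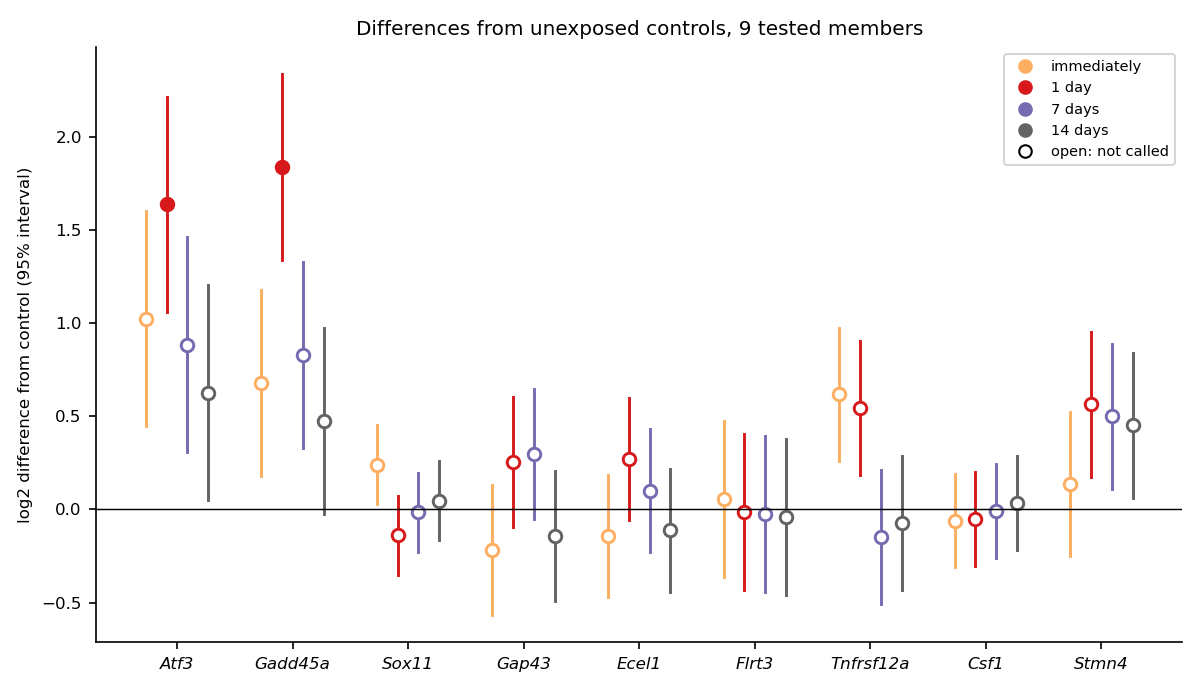
Log2 difference from control with its 95% interval for the 9 tested members (horizontal axis) at the 4 times after noise (colours), filled where called. The filled points are Atf3 at 1.64 and Gadd45a at 1.84, both at 1 day, and the intervals of Flrt3 and Csf1 cross 0 at every time.

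A moderated F test of any difference among the 5 groups, which called 6.75% of all genes, called 3 of 9 members. These were Gadd45a (limma adjusted p = 0.00368), Atf3 (0.0171) and Tnfrsf12a (0.0198). Gap43, Sox11 and Stmn4 followed at adjusted p = 0.123, 0.129 and 0.142.

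Other genes of the axon injury response were read from lists, with the members left out. The lists too were chosen with earlier results of these data known. Of 18 tested injury transcription factors, 3 were called higher immediately, where 0.579% of all genes were: Fosl2 by 1.95, Cebpb by 1.48 and Nfil3 by 0.91 (limma adjusted p = 0.00623, 0.00987 and 0.0415). At 1 day 2 were called higher, Nfil3 by 0.94 and the BMP signal transducer Smad1 by 0.41, and none at 7 or 14 days. The list median was 0.37 immediately and 0.33 at 1 day, then 0.07 and 0.04. Jun, the AP-1 subunit most often named beside Atf3, was 0.41 above control immediately and 0.42 at 1 day without a call (limma adjusted p = 0.200 and 0.142). From 1 to 7 days 5 of the 18 fell, namely Stat3, Smad1, Hif1a, Jund and Bhlhe40, by 0.27 to 0.55, where 4.22% of all genes were called lower. With sex as a term 4 were called immediately, Fosl2 and Cebpb but not Nfil3 among them, 0 were called at 1 day and only Smad1 fell from 1 to 7 days.

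Of 21 growth cone and cytoskeleton genes 0 were called immediately and 2 were called higher at 1 day, where 1.52% of all genes were, the tubulin Tubb6 by 0.64 and the actin-binding Cttn by 0.23 (limma adjusted p = 0.0454 and 0.0217), neither with sex as a term. The list medians against control stayed between 0.02 and 0.08. Between the immediate and 1-day groups Basp1 and Kif5a fell, by 0.37 and 0.26, and Prph rose by 0.45, where 4.38% of all genes were called lower and 4.02% higher. With sex as a term 2 of the list were called lower and 1 higher at this step. From 1 to 7 days Tubb6, Fscn1 and Cttn fell, by 1.04, 0.40 and 0.21, and Fez1 rose by 0.22, where 4.22% of all genes were called lower and 5.13% higher. With sex as a term only 1 of the list was called lower and 0 higher from 1 to 7 days. Of 24 injury-induced peptides and secreted factors only 12 passed the filter, and 2 of them were called higher at 1 day, the neuropeptide precursor Vgf by 2.91 and the metalloproteinase inhibitor Timp1 by 1.48 (limma adjusted p = 0.000876 and 0.00449). Both stayed called with sex as a term. Of 17 tested adhesion and surface genes 1 was called against control, the oncostatin M receptor Osmr, by 1.15 immediately and 1.23 at 1 day. From 1 to 7 days Osmr and the hyaluronan receptor Cd44 fell, by 1.23 and 0.46, and the neurotrophin receptor Ngfr rose by 0.43. With sex as a term 2 of this list were called lower there and 0 higher. Of 20 tested growth brakes 1 was called against control, the cytokine signalling inhibitor Socs3, by 1.97 immediately and 2.01 at 1 day. Beside the Osmr and Socs3 counts, 0.579% of all genes were called higher immediately and 1.52% at 1 day. Neither Osmr nor Socs3 was called against control with sex as a term.

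Of 15 tested repair Schwann cell genes 1 was called against control, Shh by 0.49 immediately (limma adjusted p = 0.0373, and 0.0533 with sex as a term). Immediately after noise 0.579% of all genes were called higher. None of 15 tested axon breakdown genes was called by limma against control at any time, and Sarm1, the enzyme that executes axon degeneration, stayed within 0.11 of control. Map3k12, the dual leucine zipper kinase that signals axon injury to the cell body, was 0.22 lower at 1 day than immediately (limma adjusted p = 0.0331; 0.0553 with sex as a term) and 0.25 higher at 7 days than at 1 day (adjusted p = 0.0158; 0.0393 with sex as a term). Of 10 tested p53 and DNA damage genes 1 was called against control, Btg2 by 1.17 immediately (limma adjusted p = 0.0373; 0.0685 with sex as a term). Cdkn1a, the p53 target often read beside Gadd45a, was 0.05 above control immediately and 0.25 at 1 day, not called (limma adjusted p = 0.891 and 0.276). Gadd45g, a paralogue of Gadd45a, was 0.88 above control immediately (limma adjusted p = 0.0589; 0.0298 with sex as a term) and 0.32 at 1 day.

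Of 25 tested relatives and partners of the members 0 were called against control at any time by limma. Between the immediate and 1-day groups 4 fell and 1 rose, against 4.38% and 4.02% of all genes. Those that fell were Basp1, a growth cone protein often paired with Gap43, by 0.37 (limma adjusted p = 0.00253), Sox12, the SoxC relative of Sox11, by 0.39 (0.00877), Stmn1 by 0.20 (0.0156) and Flrt2 by 0.58 (0.0450), and the one that rose was Csf1r. Sox12 and Stmn1 were then higher at 7 days than at 1 day, by 0.26 and 0.20 (limma adjusted p = 0.0490 and 0.0150). With sex as a term Basp1 and Sox12 stayed called at the first step (adjusted p = 0.0100 and 0.0212), and Flrt2, Stmn1, Csf1r and both later differences did not. At the step where Sox11 and Sox12 fell, 7 of 16 neuron markers were also called lower and 2 higher, with a list median of -0.21. The part of neuronal RNA content in that step was not tested.

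The remaining members had other nearest neighbours by Pearson correlation over the 15 arrays, given as a description. Sox11 was nearest to Cep83 (0.87), Wdr47 (0.85) and Pias2 (0.85), and Stmn4 to Msc (0.85), Serpinb1a (0.85) and P2ry12 (0.82). Ecel1 was nearest to Ap1s1 (0.87), Tle6 (0.85) and Atox1 (0.84). Gap43, Flrt3 and Csf1 had weaker neighbours, led by Fads1 (0.78), Sema4c (0.81) and Tnpo3 (0.78). None of these lists held another member, whereas Gadd45a was among the 3 nearest genes of Atf3.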

How the data were processed

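The 15 samples were hybridised to Affymetrix 3′ expression arrays. Affymetrix Expression Console, RMA and MAS5 are named, with no version or role, per the submitters' processing notes, and any further step was not stated there. The authors deposited log2 intensities, with none missing, and these were used without further normalization. At most 3.67% of values were identical between 2 arrays, so each counted as 1 replicate. Each sample joined both ears of 1 mouse, so p-values measure the spread between animals. Arrays hold no read depth, and their number, 3 per group with 10 residual degrees of freedom, limits the precision.

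Of 45101 probe sets the platform annotation paired 34945 with 1 gene, 932 with several and 9160 with none, and 64 were controls. Each gene took its 1-gene probe set of highest mean, and the lowest 25% of genes (mean at or below 4.70) were left out. The limma package (version 3.58.1, R version 4.3.3) fitted group means over all arrays (lmFit, eBayes with trend), with 7 two-sided contrasts adjusted by Benjamini-Hochberg over 13644 genes. A second fit took 26207 single probe sets. Code was tested on simulated data.

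Members and gene lists were chosen with earlier results of these data known. Named were all members, per list the 3 called genes of largest difference in each comparison with control, every called relative, and the 3 genes most correlated with each member. The list genes called only between times, and Jun, Sarm1, Map3k12, Cdkn1a and Gadd45g, were named after their values were seen. Replicate numbers were not taken to pair the animals. With group means removed, same-numbered arrays of different groups correlated at a mean of 0.05 (from -0.33 to 0.30 over 30 pairs). Other-numbered arrays of different groups correlated at a mean of -0.03 (from -0.49 to 0.37 over 60 pairs). Such correlations cannot settle whether the numbers mark pairs or batches. Alternatives changed the sex term, filter, probe set rule, scaling, weights, block and replicates. Promoter windows are RefSeq's (GRCm38.p6), cut to the 250 bases before the start. No genome build is named for the probe annotation.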

Additional observations from a re-analysis of the deposited data

Results flagged for a closer look

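Differences between consecutive times are also differences between 2 effects against the same controls, and 4 of them passed the test. From immediate to 1 day 8.39% of all tested genes were called, and from 1 to 7 days 9.35%. Gadd45a stood 1.16 further above control at 1 day than immediately after noise (limma adjusted p = 0.00969), and its difference from control was then smaller at 7 days by 1.01 (change -1.01, adjusted p = 0.0172). For Sox11 the effect changed by -0.38 from immediate to 1 day (limma adjusted p = 0.0307), from just above to just below the controls. The Tnfrsf12a effect changed by -0.69 from 1 to 7 days (limma adjusted p = 0.0207). With sex as a term neither the Sox11 nor the Tnfrsf12a change was called (limma adjusted p = 0.0667 and 0.0753), while both Gadd45a changes were. Sprr1a lay below the filter on low values and so outside the comparisons, yet was 0.87 above control immediately after noise in the fit over all genes (limma adjusted p = 0.0287). Its immediate difference was not called with sex as a term (limma adjusted p = 0.0510), nor without any single control or immediate array. The Sprr1a fall from immediate to 1 day stayed called with sex as a term (limma adjusted p = 0.0464). No explanation of these differences was tested.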

How the results depend on the processing

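Atf3 and Gadd45a at 1 day stayed called under 26 alternatives that each changed 1 choice, at 1.51 to 1.81 (adjusted p up to 0.0455) and 1.70 to 2.08 (up to 0.0151). With single probe sets and sex as a term together, a setting chosen after seeing the data, Gadd45a stayed called (adjusted p = 0.0175) and Atf3 did not (0.0506). Of 1653 member differences under the other settings, 0 called ones changed sign, and of 156 from the 6 called differences 14 lost the call. The count of members called immediately after noise was 0 and became 1 with female arrays alone (Gadd45a), 1 without the filter (Sprr1a), 1 with every probe set by itself (Tnfrsf12a), 2 with only the 2 groups compared, 3 with array weights, and 0 to 1 without single replicates. At 1 day the count of members called was 2, 3 with only the 2 groups compared, 3 with every probe set by itself, 4 with array weights (adding Tnfrsf12a and Stmn4) and 2 to 3 without single replicates. At 7 days it was 0, 1 with female arrays alone and 0 to 2 without single replicates. From immediate to 1 day it was 2, 1 with the mean over probe sets, 3 without the filter, 4 with array weights and 1 to 3 without single replicates. From 1 to 7 days it was 2, 1 with sex as a term, 0 with only the 2 groups compared and 0 to 2 without single replicates. The 14-day comparisons stayed at 0. For the later comparisons, the members' counts under these settings are descriptions, without the number of all genes called beside each. Female arrays alone give no value for the comparisons with the 1-day group, which holds no female. Where only the 2 groups compared were used, fewer samples set the spread, and for the other changes the cause was not tested. With the replicate block the counts in the order of the 7 comparisons were 0, 2, 0, 0, 2, 2 and 0, as without it. That is a statement about the number alone, since the replicate numbers were not taken to pair the animals. Quantile normalization and a common 75th percentile left every count as it was. Differences below about the filter level of 4.70 are compressed by background signal, which limits Sprr1a and in part Ecel1, whose lowest value was 4.64. Gap43 was dim but stayed above that level, with a lowest value of 4.95.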
